A study of Mus musculus with 18 samples.

Results

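Zscan4c, Zscan4d, Zscan4f, Tcstv1, Tcstv3 and Zfp352 are genes of the two-cell-like state, a short-lived state of mouse embryonic stem cells that DNA damage can induce. A probe was taken for a gene where its accession is assigned to that symbol in RefSeq, which gave 6 of the 19259 genes that RefSeq names on the array, each with 1 probe. Their expression was measured on 18 Agilent single-color arrays, 3 in each of 6 groups, with Cy3-labeled cRNA of 1 sample hybridized to 1 array. The groups were unirradiated embryonic stem cells (ES), the same cells 15 min (ESRE) and 4 h (ESRL) after 10 Gy IR, isogenic cells differentiated from them (ED), and these after the same times and dose (EDRE and EDRL). The ES cells were primary cells of early passage from blastocysts, grown with leukemia inhibitory factor and without feeder cells. The ED cells were made by withholding that factor, and according to the paper also beta-mercaptoethanol, until stem cell markers were lost. They were thus defined by what they no longer expressed and not by a lineage. The sources used here name no strain and no separate cultures behind the replicates, and p-values then measure only the spread between these samples, which may be technical.

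Only a small share of cells in an ES cell culture is in the two-cell-like state at any time, in which genes of the early cleavage embryo are switched on, many of them by the homeobox factor Dux. The proteins Dppa2, Dppa4 and p53 act upstream of Dux, while chromatin regulators such as the CAF-1 complex, Kdm1a and Polycomb complexes keep the state rare. Zscan4 proteins carry a SCAN domain and zinc fingers and act in telomere maintenance, the Tcstv genes form a small family also tied to telomere upkeep, and Zfp352 encodes a zinc finger protein of the early embryo.

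RefSeq promoter windows were matched by symbol for 4 of the 6 members and are shown here, those of the Zscan4 genes as near-identical copies whose values moved together and that of Zfp352 for contrast. Each window runs 5′ to 3′ on the strand of the gene, from 250 bases before to 50 bases after the start of the gene, as given by RefSeq on GRCm38.p6. The windows are chr7:11005495-11005794 on the plus strand for Zscan4c, chr7:11166099-11166398 on the minus strand for Zscan4d, chr7:11397665-11397964 on the plus strand for Zscan4f and chr4:90218570-90218869 on the plus strand for Zfp352. Capitals mark matches to TGATTCAA, letters held in the motif that Dux binds, to TATAA, and in Zfp352 to GACAACAC, a repeat that was searched after the sequence had been seen.
Zscan4c: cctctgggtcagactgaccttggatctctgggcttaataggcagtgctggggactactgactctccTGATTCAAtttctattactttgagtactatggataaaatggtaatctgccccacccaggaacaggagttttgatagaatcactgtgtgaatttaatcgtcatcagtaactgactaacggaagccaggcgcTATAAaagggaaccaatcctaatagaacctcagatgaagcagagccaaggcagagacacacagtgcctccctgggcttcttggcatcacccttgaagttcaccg
Zscan4d: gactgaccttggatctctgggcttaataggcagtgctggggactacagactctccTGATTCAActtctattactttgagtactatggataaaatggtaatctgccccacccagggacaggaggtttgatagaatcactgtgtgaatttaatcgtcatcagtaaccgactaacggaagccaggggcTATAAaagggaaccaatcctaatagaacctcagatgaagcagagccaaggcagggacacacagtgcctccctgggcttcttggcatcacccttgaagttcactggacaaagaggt
Zscan4f: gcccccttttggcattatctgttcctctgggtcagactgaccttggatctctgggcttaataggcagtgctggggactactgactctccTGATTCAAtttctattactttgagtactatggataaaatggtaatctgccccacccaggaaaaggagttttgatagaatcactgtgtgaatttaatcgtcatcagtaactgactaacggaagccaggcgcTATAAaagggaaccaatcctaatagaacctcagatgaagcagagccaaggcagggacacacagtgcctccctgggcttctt
Zfp352: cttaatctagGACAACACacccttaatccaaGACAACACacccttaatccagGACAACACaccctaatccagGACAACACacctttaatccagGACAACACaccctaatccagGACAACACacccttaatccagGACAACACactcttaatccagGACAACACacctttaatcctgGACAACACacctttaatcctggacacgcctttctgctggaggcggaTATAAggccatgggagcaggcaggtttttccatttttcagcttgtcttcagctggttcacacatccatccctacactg
Both strands of each window were searched, and these motifs do not overlap one another. TGATTCAA lay 184, 195 and 161 bases before the start of Zscan4c, Zscan4d and Zscan4f, and was found in 191 of 32851 windows of the genome's genes, or 0.581%. TATAA lay 54, 65 and 31 bases before the start in the same genes and 28 bases before the start in Zfp352. It was found in 24.9% of all windows on either strand and in 17.5% on the strand of the gene. In 3.52% it lay 40 to 16 bases before the start, as in Zscan4f and Zfp352. The window of Zfp352 held 9 copies of GACAACAC, which was present in 0.74% of all windows, and no other window had as many copies. The window of Zscan4b, a copy without a probe here, held TATAA but not TGATTCAA, though it was 95.3% to 97.7% identical to those of the other Zscan4 genes. Where they align, the windows of Zscan4c and Zscan4f were identical at 275 of 277 bases (99.3%), those of Zscan4d and Zscan4f at 259 of 266 (97.4%) and those of Zscan4c and Zscan4d at 281 of 289 (97.2%). Such copies can share transcripts on a probe, so which Zscan4 gene a signal came from is uncertain throughout.

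Values below are log2 signals relative to the 75th percentile of the signals on the same array, so that 0 is that percentile. How many of all probes had groups without overlap was not counted. Where groups are said below to overlap or not, this is only a description. Some arrays stood apart. EDRE replicates 2 and 3, which share a scan time of their own, had a 75th percentile of 875 and 1155 scanner units, ESRL replicate 1 had 1952, and the other 15 arrays lay between 2806 and 4268. On the dim EDRE arrays 24.4% and 23.8% of the spots were marked as outliers, against 3.33% to 11.1% on the others, and the probes well above background made up 49.5% and 55.5%. ESRE replicate 3 was scanned with the 3 ED arrays, away from the other ESRE arrays. A group and its control were never scanned together at a single time, so scan time and group cannot be told apart in any comparison without assuming how arrays of a scan time vary.

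The labels of the cell types were checked with marker genes. Of the probes of 10 pluripotency genes, 9 of the 10 tested were lower in ED than in ES cells, Klf4 being the exception with log2 values of 3.84 ± 0.07 (SD, n = 3) in ES and 3.89 ± 0.24 in ED cells. Pou5f1, which encodes the pluripotency factor Oct4, had a log2 value of 6.69 ± 0.09 in ES cells and -3.59 ± 0.08 in ED cells, and Dppa5a, a marker of undifferentiated cells, fell by 13.14 on the log2 scale. The probe of Nanog had a usable spot on 1 ES array, at 1.88, against -6.97 ± 0.12 in ED cells. Fibroblast or mesenchymal markers were higher in ED cells for 6 of 7 genes, with log2 changes of 10.20 for the calcium-binding protein S100a4, 5.91 for Col1a2 and 5.82 for Col3a1, which encode collagen chains. Thy1, a surface protein, was the exception and was at least 388-fold lower in ED cells. Endoderm markers (4 of 4 probes tested) and trophoblast markers (5 of 5) were lower in ED cells, led by the keratin gene Krt8 with a log2 change of -9.39. The endoderm markers Gata6 and Afp had a usable spot on 0 ES arrays and were not tested. In ED cells their log2 values were -0.43 ± 0.06 and -5.43 ± 0.13, both well above background on 3 of 3 arrays. Of all probes, 26.6% were called as lower and 15.1% as higher in ED cells. Foxa2, Cdx2 and a probe of Elf5 were well above background on 0 of 3 ED arrays, Sox7 on 1 and Eomes on 2. These probes were tested through their ES signal and could hardly be called as higher. With normexp 3 of the 5 trophoblast probes were called as lower, with median scaling or quantile normalization 4, and with median scaling 3 of the 4 endoderm probes. The part of these markers in the results below was not tested.

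In unirradiated ES cells the Zscan4 genes were bright. Zscan4c had log2 values of 6.07, 6.16 and 6.02 on the ES arrays and -3.32, -3.09 and -3.46 on the ED arrays. Zscan4d had values of 6.29, 6.25 and 6.19 in ES cells and -3.56, -3.33 and -3.18 in ED cells, and Zscan4f had 6.27, 6.23 and 6.24 against -3.31, -3.27 and -3.08. For each of the 3 genes the ES arrays lay far above the ED arrays, with no overlap, and arrays of a group lay close to one another. In signal as deposited, Zscan4c spanned 189529 to 237398 scanner units on the ES arrays and 316 to 444 on the ED arrays.

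Among the Tcstv genes, Tcstv1 had log2 values of 5.46, 5.23 and 5.34 in ES cells and -2.58, -2.57 and -2.55 in ED cells. Tcstv3 had values of 0.89, 0.95 and 0.85 in ES cells and -6.20, -6.55 and -6.50 in ED cells, where its signals of 38 to 58 scanner units were still marked as well above background on 3 of 3 arrays. Zfp352 kept a moderate level in ED cells, with log2 values of -0.71, -0.75 and -0.89 against 1.49, 1.57 and 1.42 in ES cells. For these genes, too, the groups did not overlap.

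**Figure D1:**
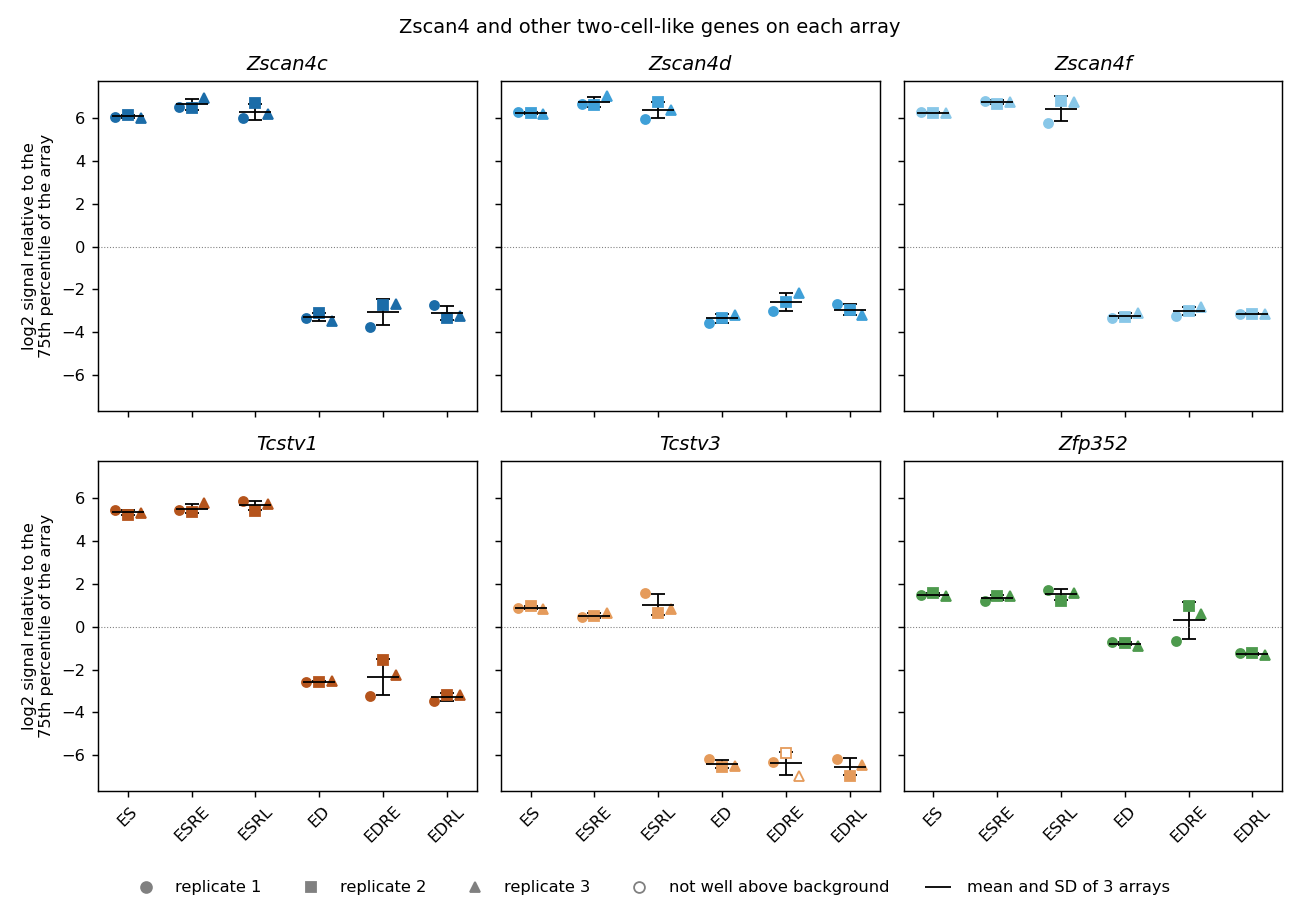
Scaled log2 signal for each of the 6 genes on each of the 18 arrays, by group, with the mean and SD of 3 arrays in black and open symbols where the spot was not well above background. ES, ESRE and ESRL arrays sit near 6 for the Zscan4 genes and ED, EDRE and EDRL arrays near -3, while Zfp352 moves from about 1.49 in ES to -0.78 in ED cells and spreads widely in EDRE.

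Differentiation was thus accompanied by lower signal of each member. With limma, 6 of 6 member probes were called as lower in ED than in ES cells, where a call needs a Benjamini-Hochberg adjusted p under 0.05 over all probes tested and a log2 change over 1 in size. Of the 28636 probes tested, 41.7% were called, 15.1% as higher and 26.6% as lower, a balance that turned with median scaling (26.8% and 18.5%) and was nearly even with quantile normalization (21.7% and 20.5%). The log2 changes were -9.37 ± 0.28 (SE) for Zscan4c (664-fold lower, adjusted p = 1.46e-12), -9.60 ± 0.24 for Zscan4d (774-fold, adjusted p = 3.35e-13) and -9.47 ± 0.22 for Zscan4f (709-fold, adjusted p = 1.74e-13). Tcstv1 was 241-fold lower (log2 change -7.91 ± 0.30, adjusted p = 1.56e-11) and Tcstv3 160-fold lower (-7.32 ± 0.28, adjusted p = 2.07e-11). Zfp352 was 4.84-fold lower (-2.27 ± 0.30, adjusted p = 1.36e-05). Each gene was lower on 3 of 3 ED arrays. ESRE replicate 3, which shares its scan time with the ED arrays, lay above all 3 of them for each member. Its log2 values were 6.95 for Zscan4c, 7.04 for Zscan4d, 6.77 for Zscan4f, 5.76 for Tcstv1, 0.64 for Tcstv3 and 1.42 for Zfp352.

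The median log2 change of the members was -8.64, against -0.19 over all probes tested. Of those probes, 102 had a lower change than Zscan4d and 118 a lower change than Zscan4c, while 4309 had a lower change than Zfp352. With the arrays set to their median the median over all probes became 0.46 and that of the members -8.00, and with quantile normalization these were 0.22 and -8.66. The 6 calls were made under every alternative tried. Since the RNA came from whole cultures, fewer cells in the two-cell-like state and less RNA of these genes per cell cannot be told apart.

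**Figure D2:**
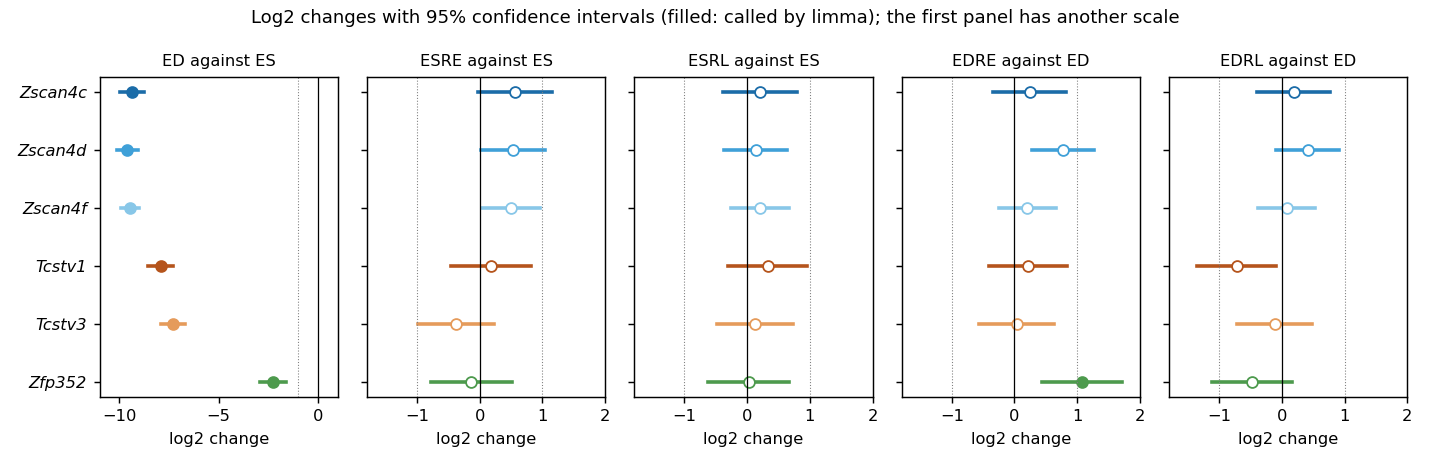
Log2 change of each gene in each of 5 comparisons with its 95% confidence interval from limma; filled points were called, dotted lines mark a log2 change of 1 in size, and the first panel has a wider scale. The changes from -9.60 to -2.27 in ED against ES cells contrast with changes between -0.72 and 1.08 after IR, where the open points were not called.

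Other genes of the two-cell-like state were lower in ED cells too. Of a list of 53 symbols of such genes 36 had a probe. Limma called 24 of the 31 probes tested as lower in ED cells, against 26.6% of all probes, with a median log2 change of -4.20. It called 0 as higher, against 15.1%, also 0 at an unadjusted p under 0.05. With normexp background correction 22 were called as lower and the median was -2.42. Tmem92 was at least 682-fold lower, with a log2 value of 1.97 ± 0.20 (SD, n = 3) in ES cells, Pramel17, of the Prame family, at least 127-fold, and the spermatogenesis factor Spz1 at least 112-fold, the last from 1 usable ES array. In such bounds the ES mean is set against, on each ED array, the spot's own signal or, if higher, the lowest signal that counted as well above background there. Gm428 had a log2 value of 2.59 ± 0.09 in ES cells and was well above background on 1 of 3 ED arrays, so its log2 change of -10.15 is set mostly against background. Tmem92, Pramel17 and Spz1 were well above background on 0 of 3 ED arrays. Such probes were tested through ES cells alone and could hardly be called as higher. Only 23 probes of the listed two-cell-like genes were tested in EDRL against ED cells, against 31 here. No probe was named Dux, which switches many of these genes on, or Duxf3.

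Several regulators of the state were lower in ED cells as well. Of 6 probes of activators, 5 were lower in ED cells and 0 higher (limma, also 0 at an unadjusted p under 0.05), with a median log2 change of -2.77. They were both probes of Dppa4 (log2 changes -6.09 and -5.83) and the probe of its partner Dppa2 (-3.86), together with Nelfa, a subunit of the negative elongation factor (-1.67), and 1 of the 2 probes of Trp53, the p53 gene (-1.29). The call on Trp53 was lost with median scaling (-0.64) and with quantile normalization (-0.81), and its other probe had a log2 change of 0.48. Of the damage kinases, Chek2 was lower (-1.72) among 3 genes tested, whose median was -0.49, and with median scaling 1 probe, of Chek1, was called as higher. Of 24 repressor probes, 10 were lower and 0 higher (3 at an unadjusted p under 0.05), against 26.6% and 15.1% of all probes and 41.7% in either direction, whereas with median scaling 5 were lower and 3, of Smchd1 and Ehmt2, higher, against 18.5% and 26.8% of all probes. The largest falls were in Lin28a (-4.13), an RNA-binding protein of undifferentiated cells, Rybp (-1.99) and L3mbtl2 (-1.88), which belong to Polycomb complexes, and Chaf1b (-1.98), a CAF-1 subunit. The median over the repressor probes was -0.87.

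**Figure D3:**
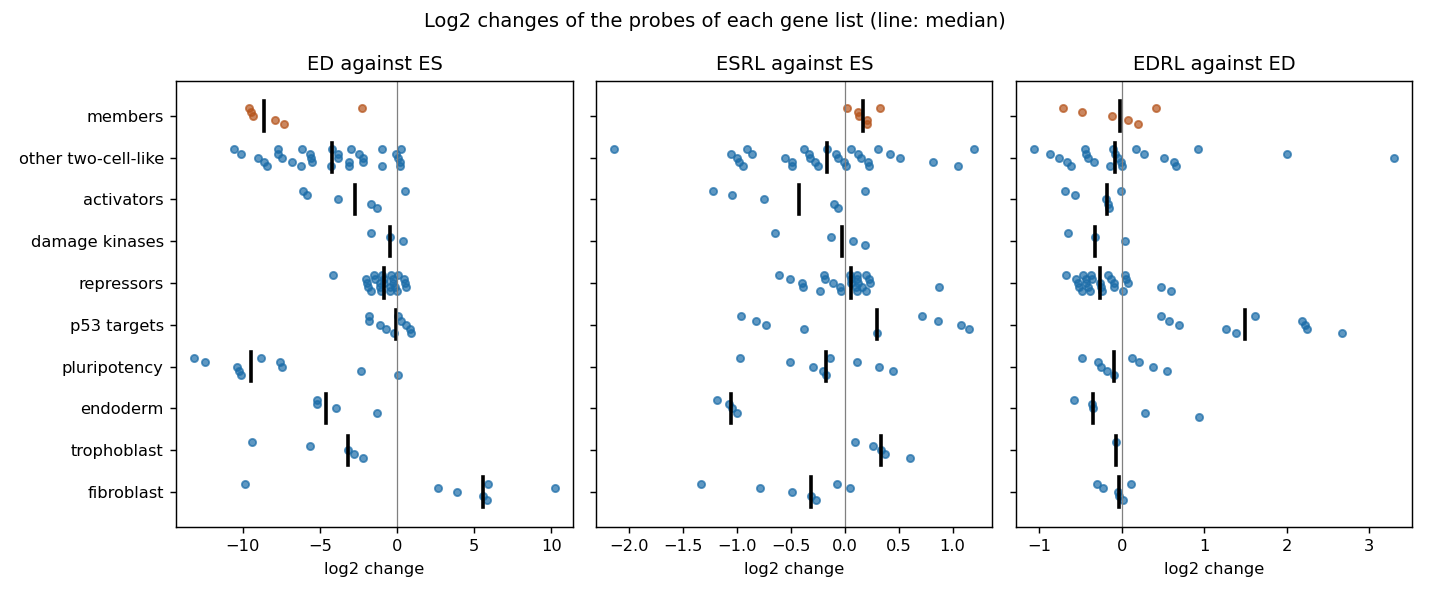
Log2 change of each probe tested in the gene lists, for ED against ES, ESRL against ES and EDRL against ED cells, each with its own scale; members are in orange and lines are medians. Members (median -8.64) and pluripotency genes (median -9.49) sit at the low end in ED against ES cells, while at 4 h after IR in ED cells the p53 targets have a median of 1.50 and the members one of -0.02.

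The next question was whether IR changed these genes in ES cells. At 15 min, Zscan4c had log2 values of 6.53, 6.48 and 6.95, Zscan4d 6.64, 6.62 and 7.04, and Zscan4f 6.82, 6.65 and 6.77. On these scaled values each ESRE array lay above each ES array for the 3 Zscan4 genes, whose probes can read the same copies. The share of all probes that separated likewise was not counted. ESRE replicate 3, which was scanned with the ED arrays, gave the highest value of Zscan4c and of Zscan4d. Tcstv1 (5.46, 5.35 and 5.76) and Zfp352 (1.21, 1.43 and 1.42) overlapped the ES arrays, and Tcstv3 (0.45, 0.49 and 0.64) lay below them.

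None of these differences passed the test. With limma 0 of 6 members were called at 15 min, against 0.463% of the 27875 probes tested (0.305% higher, 0.158% lower), while at an unadjusted p under 0.05, without the fold limit, 2 members passed with limma, against 9.45% of all probes, and 4 with the methods' t-test. Under normexp 0.248% of all probes were called as higher and 0.0251% as lower. Between 29 and 315 probes were called when 1 array was left out. The log2 changes were 0.57 for Zscan4c (95% confidence interval -0.02 to 1.16, adjusted p = 0.559), 0.53 for Zscan4d (0.02 to 1.03, adjusted p = 0.502) and 0.50 for Zscan4f (0.04 to 0.96, adjusted p = 0.468). Tcstv3 had a log2 change of -0.37, Tcstv1 of 0.18 and Zfp352 of -0.14. The median over the members was 0.34, against -0.08 over all probes, and with quantile normalization it was -0.04. Without ESRE replicate 3 the changes of Zscan4c, Zscan4d and Zscan4f were 0.42, 0.39 and 0.49, and with quantile normalization 0.19, 0.11 and 0.071.

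At 4 h the ES arrays and the ESRL arrays overlapped for each member. Zscan4c had log2 values of 5.997, 6.69 and 6.18, Zscan4d 5.98, 6.75 and 6.40, and Zscan4f 5.79, 6.80 and 6.75. For the Zscan4 genes the lowest value came from ESRL replicate 1, the dimmer array, and for Tcstv1 (5.86, 5.43 and 5.73), Tcstv3 (1.59, 0.66 and 0.84) and Zfp352 (1.74, 1.22 and 1.59) the same array gave the highest. With limma 0 of 6 members were called, against 7.03% of 27966 probes (0.69% higher, 6.34% lower). At an unadjusted p under 0.05, 0 passed with limma, against 25.0% of all probes, and 0 with the methods' t-test. The share of all probes called moved, to 0.114% higher and 0.168% lower with normexp and 2.12% and 3.7% with median scaling. When 1 array was left out, between 834 and 4151 probes were called. With median scaling 4 members were higher at an unadjusted p under 0.05 and 0 were called, with a median of 0.48, against 0.15 over all probes. The share of all probes at that unadjusted p with median scaling is not given here. The log2 changes lay between 0.02 for Zfp352 and 0.33 for Tcstv1, with a median of 0.17 against -0.16 over all probes. Without ESRL replicate 1 the change of Zscan4f was 0.53 (adjusted p = 0.0367), below the fold limit.

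Over the 9 arrays of ES, ESRE and ESRL the Zscan4 genes moved together. The Pearson correlation of their log2 values was 0.97 between Zscan4c and Zscan4d (Spearman 0.98), 0.87 between Zscan4d and Zscan4f (0.90) and 0.77 between Zscan4c and Zscan4f (0.87), which describes 9 arrays that share cells, scan times and, for these genes, much of their sequence. Tcstv3 ran opposite to them, with r of -0.66 with Zscan4c and -0.89 with Zscan4f, as did Zfp352 with r between -0.73 and -0.63, while Tcstv3 and Zfp352 had r of 0.82 with each other. The r of Tcstv1 with the Zscan4 genes lay between -0.09 and 0.09. The mean of the centred values of the 6 members was highest on ESRE replicate 3, at 0.25, and lowest on ES replicate 3, at -0.17.

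**Figure D4:**
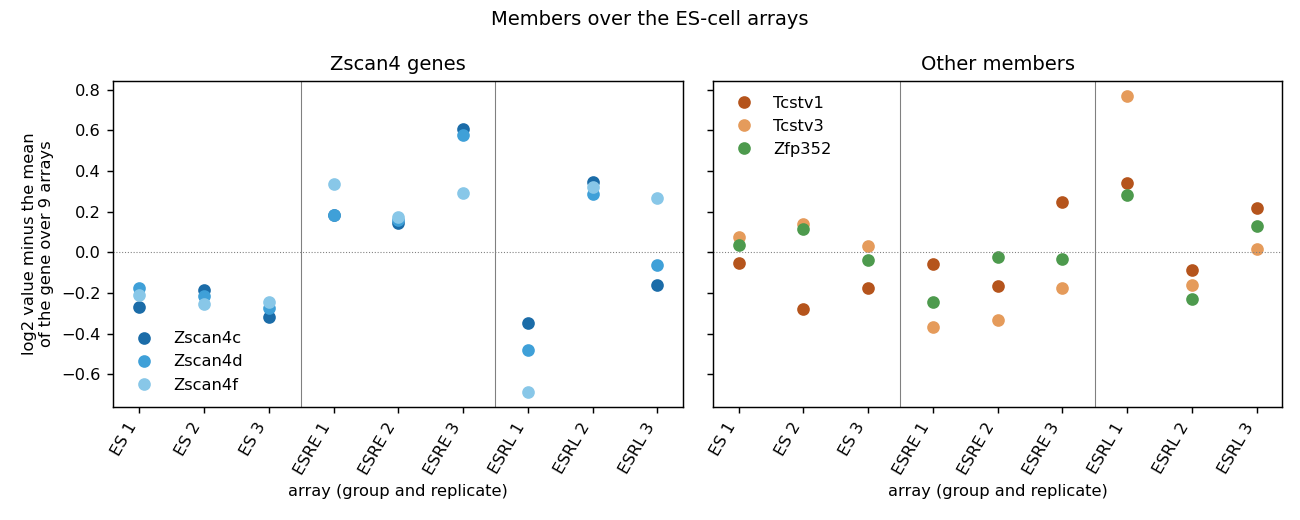
Log2 value of each gene minus its mean over the 9 ES, ESRE and ESRL arrays, with Zscan4 genes on the left and the other members on the right. The Zscan4 genes lie below 0 on the ES arrays and above it on the ESRE arrays, and on ESRL replicate 1 they are at their lowest while the other members are at their highest.

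The genes most like the members were sought by the correlation with that mean over the same 9 arrays, among the 1609 named probes of 3214 that were well above background on all of them and had an SD of at least 0.5. They were Defa24, which encodes a defensin (r = 0.957, log2 values from -6.40 to -2.27), Pradc1 (0.899), Gm525 (0.895), the oocyte maturation kinase Mos (0.875) and the Nlr family gene Nlrp9b (0.866). The mean follows Zscan4c and Zscan4d most (r = 0.827 and 0.792), Zscan4f and Tcstv1 less (0.612 and 0.601) and not Tcstv3 (-0.29) or Zfp352 (-0.20). The SD of each member over these arrays (0.17 to 0.36) is itself below the limit set for the candidates. A further 3 probes without a RefSeq name had a higher r than Nlrp9b. These are the highest of many correlations over few arrays, and ESRE replicate 3 weighs on the mean.

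In ED cells, 1 member passed the test after IR. At 15 min Zfp352 had log2 values of -0.68, 0.99 and 0.58 on the EDRE arrays, above the ED arrays without overlap, and the high values came from both dim arrays. In signal as deposited it did not stand above the unirradiated cells, with 1896, 1742 and 1729 scanner units on the EDRE arrays and 2612, 2245 and 1880 on the ED arrays. The 75th percentile was 875 and 1155 on EDRE replicates 2 and 3 and 3472 to 4268 on the ED arrays. Other scalings did not change the count of members called as higher, which was 1 with median scaling and 1 with quantile normalization. These also rescale each array, so they cannot show what part scaling has in the difference. Limma called Zfp352 as higher (log2 change 1.08 ± 0.30, 2.12-fold, adjusted p = 0.0431, on 3 of 3 arrays), so 1 of 6 members was called, against 4.85% of 24490 probes (2.1% higher, 2.74% lower). That background was not stable, with 12.4% higher and 0.592% lower under normexp, 5.9% and 2.18% under median scaling, and between 249 and 5702 probes called when 1 array was left out. The call was also lost with scan time as a random block (0.85), with the replicate number as a block (adjusted p = 0.059), with the methods' t-test and with only the compared groups in the fit (adjusted p = 0.311). Without both dim arrays, an alternative chosen after seeing the data, the log2 change was 0.10 (adjusted p = 0.879). This fit leaves 1 EDRE array and takes its spread from the other groups, here and wherever both are left out, so its p-values carry little weight. The call on Zfp352 was lost in 14 of the 18 fits that left out 1 array.

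**Figure D5:**
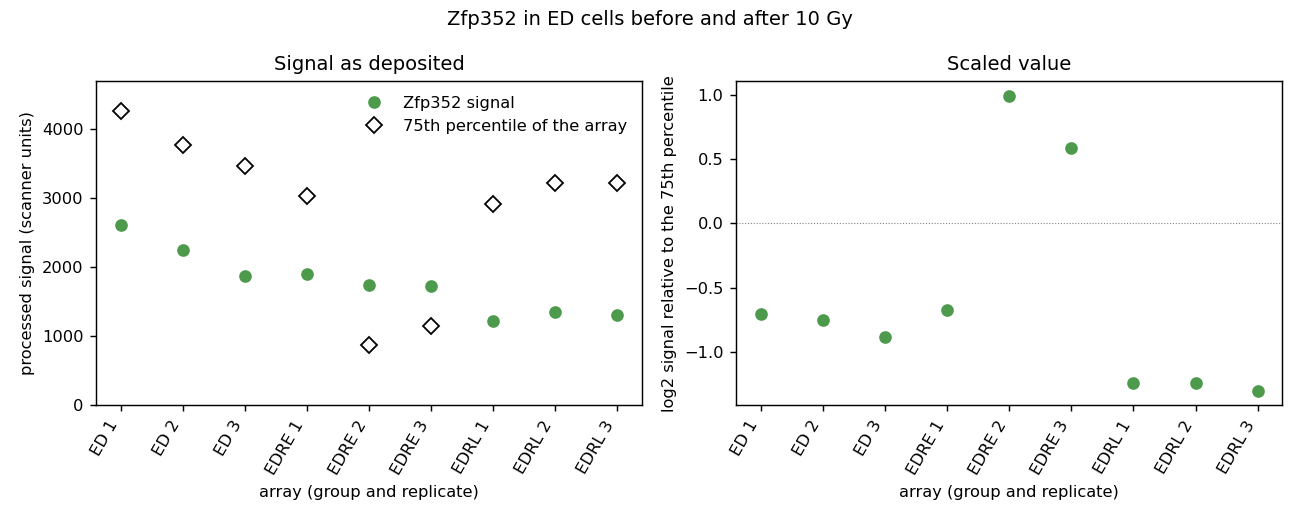
Zfp352 on the ED, EDRE and EDRL arrays, with the processed signal as deposited and the 75th percentile of each array on the left and the scaled log2 value on the right. The EDRE signals of 1729 to 1896 scanner units lie at or below those of the ED arrays except ED replicate 3, while the percentile falls to 875 and 1155 on EDRE replicates 2 and 3, where the scaled values are highest.

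Most other members in the early ED samples differed between the same arrays. Zscan4d had log2 values of -2.58 and -2.17 on the dim arrays and a lower one on EDRE replicate 1, all above the ED arrays, and a change of 0.77 that was not called (adjusted p = 0.0572). Zscan4c (-3.73, -2.74 and -2.66), Zscan4f (-3.22, -3.01 and -2.84) and Tcstv1 (-3.22, -1.57 and -2.27) were lowest on EDRE replicate 1, with changes of 0.25, 0.20 and 0.22. Tcstv3 was well above background on 1 of 3 EDRE arrays, at -6.30, and its change of 0.03 rests partly on spots near background. The median of the members was 0.23, against 0.03 over all probes, and 0.054 without both dim arrays. With normexp it was 0.93, against 0.59 over all probes, and 5 members were higher at an unadjusted p under 0.05. There 12.4% of all probes were called as higher, and their share at that unadjusted p is not given here. Without both dim arrays, Zscan4c had a change of -0.44, Zscan4d of 0.36 and Tcstv1 of -0.65.

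At 4 h after IR no member was called in ED cells. Tcstv1 had log2 values of -3.48, -3.17 and -3.21 on the EDRL arrays and Zfp352 of -1.25, -1.24 and -1.30, in both cases below the ED arrays without overlap. The log2 changes were -0.72 for Tcstv1 (adjusted p = 0.274) and -0.48 for Zfp352 (adjusted p = 0.532). Zscan4c (-2.72, -3.33 and -3.24), Zscan4d (-2.68, -2.94 and -3.21), Zscan4f (-3.13, -3.14 and -3.17) and Tcstv3 (-6.20, -6.97 and -6.43) overlapped the ED arrays, with changes of 0.19, 0.41, 0.08 and -0.12. With limma 0 of 6 members were called, against 1.61% of 25412 probes (1.38% higher, 0.236% lower). At an unadjusted p under 0.05, 1 passed with limma, against 13.9% of all probes. With the methods' t-test 2 passed, for which no share of all probes is given here. The median of the members was -0.02, against -0.09 over all probes, and 0.13 with median scaling.

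Whether the response to IR differed between the cell types was tested with the interaction, which is positive where the change was more positive in ES cells. At 15 min limma called 0 of 6 members, against 1.98% of 28098 probes (0.811% positive, 1.16% negative), and 1 passed at an unadjusted p under 0.05, against 18.7% of all probes, Zfp352 with an interaction of -1.22 (adjusted p = 0.146). Without EDRE replicate 1 it was -1.71 (adjusted p = 3.71e-04), a fit that leaves only the dim arrays in EDRE. At 4 h 0 of 6 were called, against 1.07% of 28375 probes (0.226% positive, 0.846% negative), and 1 passed at an unadjusted p under 0.05, against 15.2% of all probes, Tcstv1 with an interaction of 1.05 (adjusted p = 0.255). Its adjusted p was 0.0474 without EDRE replicate 1 and 0.0184 without both dim arrays, at the same interaction of 1.05. The median interaction of the members was -0.14 at 15 min and 0.18 at 4 h, against -0.22 and -0.15 over all probes. At 15 min it was -0.59 with quantile normalization, -0.46 with normexp and 0.33 without both dim arrays, and at 4 h -0.077 with quantile normalization, so neither sign held throughout. The number of probes called in the interaction at 15 min lay between 139 and 6459 when 1 array was left out, and with quantile normalization more were positive (0.861%) than negative (0.612%). At 4 h that number lay between 131 and 1406. The shares there were 0.00705% positive and 0.0564% negative with normexp, and 0.465% and 0.518% with quantile normalization.

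The p53 targets were also followed after IR, with scan time again not separable from group. Of their 10 probes in ED cells, 6 rose at 4 h, against 1.38% of all probes, with a median log2 change of 1.50, among them both probes of the death receptor gene Fas (2.68 and 2.25), Trp53inp1 (2.22) and Btg2 (2.18), a regulator of cell division. In ES cells at 4 h, 2 of 9 probes rose, against 0.69% of all probes, those of Trp53inp1 (1.15) and Fas (1.08), with a median of 0.30. Without ESRL replicate 1 Fas was at 0.98 and no longer called, and the median was 0.57. With median scaling 4 of the 9 rose, against 2.12% of all probes, with a median of 0.61. With normexp background correction limma called 0 of these 9 at 4 h in ES cells (4 higher and 2 lower at an unadjusted p under 0.05, against 4 and 3 without it). At 15 min limma called 0 of 9 probes in ES cells (1 at an unadjusted p under 0.05). In ED cells it called 2 of 10 as higher, against 2.1% of all probes, those of Btg2 (1.87) and Trp53inp1 (1.17). Without the dim arrays their changes were only 1.15 and 0.73.

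Among the other two-cell-like genes, Zfp750, known as a regulator of epidermal differentiation, and Ddit4l, an inhibitor of mTOR signaling, were called after IR. In ED cells at 4 h Zfp750 rose from -6.02 ± 0.33 to -2.72 ± 0.36 (SD, n = 3; log2 change 3.31, limma adjusted p = 4.56e-06) and Ddit4l from -0.99 ± 0.24 to 1.01 ± 0.21 (adjusted p = 7.84e-05), 2 of 23 probes tested. In ES cells at 4 h they had log2 changes of 1.20 and 1.05, 2 of 31 probes. Of all probes, 1.38% were called as higher at 4 h in ED cells and 0.69% in ES cells. Without ESRL replicate 1 the ES change of Ddit4l was 0.85, below the fold limit, and 1 probe of the list was higher and 1 lower. With normexp 1 of the 31 was higher. At 15 min Ddit4l rose in ED cells (1.55, 1 of 22 probes, against 2.1% of all probes), and had a change of 1.41 in the fit with EDRE replicate 1 alone. In ES cells at 15 min limma called 0 of 30 probes, with 5 at an unadjusted p under 0.05. The medians of this list after IR were -0.01 and -0.17 in ES cells and -0.16 and -0.09 in ED cells at 15 min and 4 h. Each sign depended on the processing. With median scaling the medians were 0.070 at 15 min and 0.12 at 4 h in ES cells and 0.072 at 4 h in ED cells. At 15 min in ED cells the median was 1.02 with normexp, with 5 of 22 probes higher, against 12.4% of all probes. With quantile normalization it was -0.53, with 1 higher and 2 lower, against 1.49% and 3.39% of all probes. Markers of the cell types were called too. At 4 h in ES cells 2 of 4 endoderm probes were lower, of Sox17 (-1.18) and Gata4 (-1.07), against 6.34% of all probes. With normexp, with median scaling and without ESRL replicate 1, 0 of the 4 were called. At 15 min in ED cells Pou5f1 (-1.68) and Sox17 (-1.44) were lower, each well above background on 1 of 3 EDRE arrays. Without the dim arrays they were at -0.93 and -0.74.

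No regulator of the state was called after IR in either cell type. Of all probes, 0.463% and 7.03% were called in ES cells at 15 min and 4 h, and 4.85% and 1.61% in ED cells. At an unadjusted p under 0.05 with limma these shares were 9.45%, 25%, 26% and 13.9%. In lists this small, counts of 0 called lie near such shares. Of 6 activator probes limma called 0 at 15 min and 0 at 4 h in ES cells, with 0 and 2 at an unadjusted p under 0.05, and 0 in ED cells, with 1 and 0. Dppa2 had a log2 change of -1.22 at 4 h in ES cells (adjusted p = 0.134), and the dimmer probe of Trp53 one of -1.05 (adjusted p = 0.129), which was -0.39 without ESRL replicate 1. Of the repressor probes 0 of 24 were called in ES cells at either time (5 and 3 at an unadjusted p under 0.05), and in ED cells 0 of 24 at 15 min and 0 of 25 at 4 h (3 and 8). With median scaling 1 repressor probe was called as higher in ESRL cells, of Setdb1, and 1 in EDRE cells, of Kdm1a. Of the damage kinases, 0 of 4 probes were called in ES cells and 0 of 3 in ED cells at either time, with 2 at an unadjusted p under 0.05 in EDRE cells and 0 in the other groups.

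By mean level, Zscan4c, Zscan4d and Zscan4f had the same order in ES cells, with ESRE (6.65 ± 0.26, 6.77 ± 0.23 and 6.75 ± 0.08; SD, n = 3) above ESRL and ES. For Tcstv1 the order was ESRL (5.67 ± 0.22), ESRE (5.52 ± 0.21) and ES (5.34 ± 0.11), and for Tcstv3 ESRL (1.03 ± 0.49), ES (0.90 ± 0.05) and ESRE (0.53 ± 0.10). Zfp352 had means of 1.52 ± 0.26, 1.49 ± 0.08 and 1.36 ± 0.13 in ESRL, ES and ESRE cells. Among ED cells the mean of EDRE was the highest for each member, with Tcstv3 well above background on 1 of 3 EDRE arrays. On EDRE replicate 1, which was not dim, Zfp352 and Tcstv3 lay above the means of ED and EDRL, while each of the other members lay below the mean of ED, of EDRL or of both. EDRL was the lowest for Tcstv1 (-3.29 ± 0.17), Tcstv3 (-6.53 ± 0.40) and Zfp352 (-1.26 ± 0.03). Of the differences from the unirradiated cells behind these orders, limma called that of Zfp352 in EDRE cells alone, and the irradiated groups were not tested against each other, whereas each ES, ESRE and ESRL array lay above each ED, EDRE and EDRL array for each of the 6 genes.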

How the data were processed

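Gene expression was measured in 18 samples, 3 per group, with 1 array each, a number of arrays that limits precision. The intensity values are the processed signals of Agilent Feature Extraction in the files the authors deposited, with background subtracted and no normalization across arrays. The log2 value table that the authors deposited was used as an alternative. All value columns could be assigned to samples (0 could not).

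Control spots and spots marked as outliers were left out, and spots of a probe were averaged, which gave 37246 probes, 22216 of them named from RefSeq. Signals were put on the log2 scale after division by the 75th percentile on that array. A probe counted as well above background where at least 50% of its spots did, and was tested where this held on all 3 arrays of a group compared. The 6 groups were fitted with limma 3.58.1 in R 4.3.3 on all arrays, with variances moderated and p-values adjusted over all probes tested. The procedure was tested on simulated data.

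The members and lists were chosen with earlier results of these data known. Besides the members, genes were named from those of the lists that were called (at most the 4 largest per list and comparison), though not all of these were named. Pou5f1, Nanog, Dux, Duxf3, Trp53, Dppa2 and Dppa4 were added, with the 5 genes most correlated with the members. Klf4, Setdb1, Kdm1a, Smchd1, Ehmt2 and Chek1 were named after their values were seen. In all, 12 alternatives were tried, of which 1 left out each of the 18 arrays in turn, and 1 more was chosen after seeing the data. They changed the background correction, the scaling, the detection filter, the outlier spots, the block (scan time or replicate number), the fold limit, the test, the values and which arrays were fitted.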

Additional observations from a re-analysis of the deposited data

Results flagged for a closer look

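None of the 6 members passed the test of the difference in response between the cell types, but 8 genes of the lists beside them did, by the interaction of IR and cell type in limma, at an adjusted p under 0.05. At 15 min these were 4 of 30 probes of other two-cell-like genes and 3 of 9 of pluripotency genes, against 1.98% of all probes, and at 4 h 1 of 31 and 1 of 9 of p53 targets, against 1.07%. All 9 probes of p53 targets had a negative interaction at an unadjusted p under 0.05 at 4 h, with a median of -1.31, against -0.15 over all probes. The interaction is positive where the change after IR was more positive in ES cells. Groups of 3 arrays are too small for a test of single outlying arrays.

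At 15 min, Gm2016 had an interaction of 3.90 (adjusted p = 0.04), the transcription factor gene Lmx1a of -2.38, Spz1 of -2.73 and Ddit4l of -1.54. The pluripotency genes Pou5f1 and Esrrb had interactions of 2.30 and, for the 2 probes of Esrrb, 1.46 and 1.31. These values rest on the EDRE arrays, of which 2 were dim. Without them, as an alternative chosen after seeing the data, Pou5f1 was at 1.55 (adjusted p = 0.0142) and a probe of Esrrb at 1.17 (adjusted p = 0.0287), both called, but in a fit that leaves 1 EDRE array and takes its spread from the other groups. The others were then not called, with Gm2016 at 2.43, Spz1 at -2.23, Lmx1a at -1.85, Ddit4l at -1.40 and the other probe of Esrrb at 1.12. Without ESRE replicate 3, Ddit4l (-1.68) and Pou5f1 (2.17) were called. Under normexp background correction none of these 7 probes was called, and under quantile normalization Ddit4l alone was (-1.44), with Pou5f1 at 1.66 and the probes of Esrrb at 0.93 and 0.86. Spz1 had a usable spot on 1 ES array. Spz1 and Lmx1a were well above background on 0 of 3 ED arrays and 1 of 3 EDRE arrays, and Gm2016 and Pou5f1 on 1 of 3 EDRE arrays, so these 4 values are differences wholly or partly against background.

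At 4 h, Zfp750 had an interaction of -2.11 (adjusted p = 0.0134) and the more changed probe of Fas of -1.96 (adjusted p = 0.00835), so that the change was more positive in ED cells, in which both rose. Without ESRL replicate 1 the interactions were -2.06 and -1.91 and both were called. Under normexp background correction that of Zfp750 was -1.16 and not called.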

How the results depend on the processing

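The 6 calls in ED against ES cells and the counts of 0 in ESRE, ESRL and EDRL cells held under every alternative tried. Over the changes of single members, 485 of 522 values under other alternatives and 716 of 756 under the leaving out of 1 array kept their direction and their side of the threshold.

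The count of 1 member in EDRE against ED cells was 3 with normexp background correction (Zscan4d at 1.22 and Tcstv3, well above background on 1 of 3 EDRE arrays, at 1.49 were also called, while the share of all probes called as higher went from 2.1% to 12.4%). It was 0 with scan time as a random block, with only the groups compared in the fit, with the methods' t-test under the fold limit before and after adjustment (1 member without that limit before adjustment), and without both dim EDRE arrays, and it lay between 0 and 1 when 1 array was left out. The count of 0 in the interaction at 15 min lay between 0 and 1 when 1 array was left out. The count of 0 in the interaction at 4 h was 1 with only the groups compared in the fit (Tcstv1, adjusted p = 0.0288) and 1 without both dim EDRE arrays, and lay between 0 and 1 when 1 array was left out. The cause was not tested.

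Replicate numbers do not pair the samples: 3 of 15 pairs of arrays with the same number had deviations that correlated above 0.1, and 5 were highest with their own number. With the number as a block, the count in EDRE against ED cells was 0, and no other count of members changed.

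Directions turned only for changes that were not called. With normexp these were Zfp352 in ESRE (0.074), Tcstv3 in EDRL (0.16), Zscan4c and Zscan4f in the interaction at 15 min (-0.17 and -0.23) and Tcstv3 in that at 4 h (-0.14). With quantile normalization they were Tcstv1 in ESRE (-0.21), Zscan4c, Zscan4d, Zscan4f and Zfp352 in ESRL (-0.0061, -0.11, -0.085 and -0.024), and Zscan4c and Zscan4f in the interactions at 15 min (-0.14 and -0.20) and 4 h (-0.29 and -0.25). Tcstv3 in EDRL was 0.036 with median scaling and 0.032 in the value table of the authors. With scan time as a random block (consensus correlation 0.81), the changes were -0.046 for Tcstv3 in EDRE, 0.12 for Zfp352 in EDRL, -0.16 for Zscan4f and 0.11 for Tcstv1 in the interaction at 15 min, and -0.64, -0.25 and -0.061 for Zscan4c, Zscan4f and Zfp352 in that at 4 h. Without both dim EDRE arrays, chosen after seeing the data, they were -0.44 for Zscan4c and -0.65 for Tcstv1 in EDRE, and 0.17 for Zscan4d and 0.83 for Tcstv1 in the interaction at 15 min. The cause was not tested.

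When 1 array was left out, directions turned within these ranges. In ESRL, Zscan4d spanned -0.051 to 0.33, Tcstv3 -0.15 to 0.31 and Zfp352 -0.087 to 0.17. In EDRE, Tcstv1 spanned -0.18 to 0.65 and Tcstv3 -0.21 to 0.32, and in EDRL Tcstv3 spanned -0.28 to 0.10. In the interaction at 15 min, Zscan4c spanned -0.021 to 0.51 and Tcstv1 -0.47 to 0.35. In that at 4 h, Zscan4c spanned -0.19 to 0.20, Zscan4f -0.053 to 0.45 and Tcstv3 -0.038 to 0.43.

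The median change over all probes moved with the background correction and the scaling. It was 0.59 with normexp and 0.29 with median scaling in EDRE, against 0.03, and in EDRL 0.06 with median scaling, against -0.09. In ESRL it was 0.15 with median scaling, -0.02 with quantile normalization and -0.04 with normexp, against -0.16. In the interaction at 15 min it was -0.83 with normexp, -0.36 with median scaling and -0.08 with quantile normalization, against -0.22, and in that at 4 h 0.01 with median scaling and -0.03 with quantile normalization, against -0.15.

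Several limits remain. With 3 arrays per group, not known to be separate cultures, small changes of the Zscan4 genes after IR could not be resolved. Scan time separates each group from its control. Signal over background limits Tcstv3 in EDRE cells and dim list genes, some of whose folds are lower bounds and others partly set against background, and the dim EDRE arrays add spots near background. A probe can read several near-identical Zscan4 copies. Arrays of whole cultures average over cells in different states, and Dux was not measured.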

Other observations

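Genes next to the members in RefSeq were looked at by position, after the values of the members had been seen, as a description of ED against ES cells. Around Zscan4c on chromosome 7, Nlrp4b and the vomeronasal receptor gene Vmn1r72 had log2 changes of 0.14 and 0.02, neither called by limma, Vmn1r73, well above background on 1 of 3 ED arrays, one of -1.93 (adjusted p = 0.0197), and Vmn1r71 was not well above background in either cell type. Around Tcstv1 on chromosome 13, AF067063 was at least 43.3-fold lower in ED cells and BC147527 had a change of -6.56, each from 1 usable ES array, while Zfp131 was higher (1.05). Around Zfp352 on chromosome 4, the transcription factor gene Dmrta1 was higher in ED cells (5.47 ± 0.23, SE) and Tusc1 also (1.95), whereas the 3 probes of the RNA-binding protein gene Elavl2 were lower (-3.12, -3.13 and -2.88). The part of gene position in these values was not tested.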
